A study of Mus musculus with 30 samples.

Results

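Terminal ileum, the last stretch of the small intestine, was compared between germ-free (GF) mice of 10 weeks and GF mice of 6 weeks. The samples were chosen by their labels alone, which gave 6 of the 30 samples in the series, 3 at each age. All came from untreated mice of the inbred strain C3H/HeOuJ, and total RNA from whole tissue was read as tags from the polyadenylated 3′ end of each transcript. GF mice carry no microorganisms, so the comparison asks how the ileum changed over 4 weeks of young adult life with no microbiota. Age-matched specific pathogen-free (SPF) mice, which carry a conventional microbiota free of listed pathogens, gave the same comparison in 3 samples of 10 weeks and 3 of 6 weeks. Mice colonized in week 5 (COL) began life germ free and then received an SPF microbiota. Their ileum libraries entered the same fitted model, but their own values appear below only as levels. Whether the triplicates of a group shared a litter or an isolator is not given in the sources used here. The p-values set each difference against the spread between libraries of a group, estimated over all 18 ileum libraries, COL included. Whether that spread holds for other litters or isolators is not known.

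The clearest differences between the 2 ages lay in a programme that enterocytes and hepatocytes switch on when they burn fatty acids. PPAR alpha, encoded by Ppara, is a nuclear receptor that binds fatty acids and their derivatives and, paired with a retinoid X receptor, activates genes for fatty acid binding and for beta-oxidation in mitochondria and peroxisomes. In small intestine the programme is known to respond to dietary fat, fasting and milk feeding. Heat shock proteins, described after it, are chaperones that refold damaged proteins and are induced by the transcription factor HSF1.

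Each of the 6 GF libraries held between 4310382 and 7339857 reads assigned to genes, and levels are given as counts per 1000000 of those reads (CPM), with each library's size scaled by the trimmed mean of M values (TMM). The 8 markers of terminal ileum enterocytes summed to 21996, 40851 and 30807 CPM at 10 weeks and 24392, 33031 and 36656 CPM at 6 weeks, while red blood cell markers were at 0 and pancreas markers at or under 0.443 CPM in all 6. Some libraries held other tissue. The 5 markers of B cell follicles summed to 64.0 CPM in 10-week replicate 1 and 85.9 CPM in 6-week replicate 1, against at most 5.28 CPM in the other 4 GF libraries. Colon markers summed to 5.94 CPM in 6-week replicate 1, against at most 0.754 CPM in every other GF library. Adipoq, a hormone gene of fat cells, stood at 125 CPM in 10-week replicate 2 and at 86.1 and 60.5 CPM in 6-week replicates 2 and 3, and at 0 in the other 3, so that 1 library of the older and 2 of the younger age held fat RNA. In SPF ileum, 10-week replicate 1 held 685 CPM of the follicle markers, against at most 9.18 CPM in the other 5, and the 4 smooth muscle markers summed to 184 CPM in 10-week replicate 3, against 1133 to 2019 CPM in the other 5.

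Differences are log2 fold changes of 10 weeks over 6 weeks from the fitted model, with the standard error after ±, also where they stand alone in parentheses. Of 24746 genes listed, 13233 were expressed enough to test, and their median difference was -0.01 on the log2 scale, with the middle 50% between -0.21 and 0.16. Only 4 genes, or 0.0302%, had an adjusted p under 0.05 (edgeR quasi-likelihood F test, Benjamini-Hochberg method over all tested genes), and all 4 were lower at 10 weeks. No gene passed as higher in that test, 215 genes (1.62%) were higher and 288 (2.18%) lower at an unadjusted p under 0.05, and DESeq2 called 5 genes higher and 5 lower, among them all 4. In SPF ileum the same test called 181 genes, or 1.37%. Both counts changed when a library was left out, which also makes its group smaller. With 1 of the 6 GF libraries left out at a time 0 or 1 gene passed in GF ileum. With 1 SPF library left out at a time between 0 and 416 passed in SPF ileum. The part of the smaller group in these counts was not tested.

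Acot1, Acaa1b and Pdk4, all of them PPAR alpha targets of fatty acid use, were among the 4 genes that fell. Acot1 (chr12:84009490-84018371, plus strand, mm10) encodes a cytosolic thioesterase that splits long-chain acyl-CoA into free fatty acid and coenzyme A. It stood at 10.9, 17.0 and 13.0 CPM in the 10-week GF libraries, against 47.7, 49.9 and 45.9 CPM in the 6-week GF libraries. The ages did not overlap, and the means of 13.6 ± 3.11 and 47.8 ± 1.99 CPM (SD, n = 3 each) differed by -1.81 ± 0.30 on the log2 scale (edgeR quasi-likelihood test, adjusted p = 0.0170; 95% interval -2.43 to -1.18), so that 6-week ilea held 3.49 times as much.

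Acaa1b (chr9:119148023-119157093, minus strand) encodes a thiolase of the last step of peroxisomal beta-oxidation. The 10-week GF libraries gave 74.6, 62.2 and 66.5 CPM, against 163, 184 and 229.7 CPM in the 6-week GF libraries. The lowest younger ileum was still above every older one, and the log2 change was -1.51 ± 0.25 (95% interval -2.02 to -0.99, adjusted p = 0.0170). Pdk4 (chr6:5483351-5496309, minus strand) encodes a kinase that shuts pyruvate dehydrogenase and so spares glucose when fat is burnt. It was counted at 12.1, 16.5 and 13.9 CPM at 10 weeks, against 37.3, 36.5 and 60.2 CPM at 6 weeks. Its ages did not overlap either, although 6-week replicate 3 lay well above the other young ilea, and the change was -1.65 ± 0.30 (95% interval -2.27 to -1.03, adjusted p = 0.0312). With any 1 of the 6 GF libraries left out, none of the 3 passed: adjusted p lay between 0.0655 and 0.708, while the log2 changes stayed between -1.99 and -1.66 for Acot1, -1.60 and -1.35 for Acaa1b, and -1.77 and -1.37 for Pdk4. Acot1 and Acaa1b have close paralogs, and reads with several matches made up between 29.6% and 32.3% of the reads listed per GF library and were not assigned to genes, so the 2 values may miss part of the transcripts.

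Fat RNA was spread unevenly over the ages. In an edgeR fit without the 3 GF libraries that held Adipoq, which left 2 older libraries and 1 younger, the log2 differences were -1.98 for Acot1, -1.20 for Acaa1b and -1.50 for Pdk4, and 0 genes passed, with 392 at an unadjusted p under 0.05. The part of attached fat in the fall was not tested. In whole tissue, fewer cells of a type and less RNA per cell cannot be told apart.

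**Figure D1:**
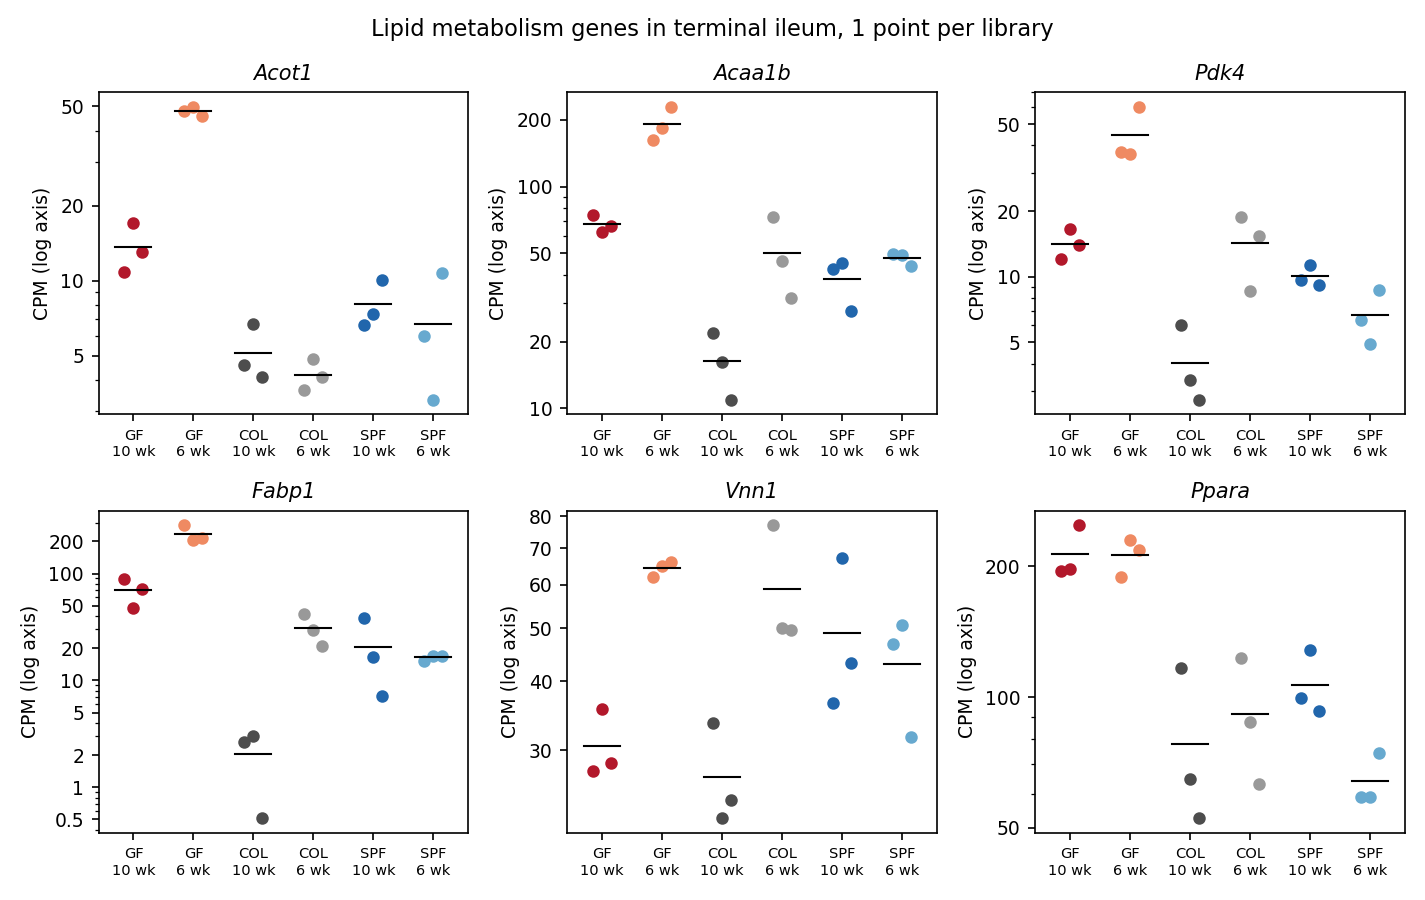
CPM on a log axis for 5 lipid genes and the receptor gene Ppara in every terminal ileum library, grouped by colonization and age, with 1 point per library and a line at the mean of 3. The 10-week GF points of Acot1, Acaa1b, Pdk4, Fabp1 and Vnn1 lie below all 6-week GF points, those of the first 4 of these genes lie above all SPF points, and those of Ppara overlap the 6-week GF points.

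Promoters of these 3 genes, and of the related gene Fabp1, show what the receptor motif looks like there. The windows below run from 250 bases before to 50 bases after the transcription start in RefSeq's annotation of GRCm38.p6, on the gene's own strand. Capitals mark each match to AGGNCA on either strand, the 6-base motif of nuclear receptors. In Fabp1 the capitals also hold the full element AGGNCANAGGNCA, of which the shorter motif is a part, beginning 67 bases before the start.
Fabp1, chr6:71199629-71199928, plus strand: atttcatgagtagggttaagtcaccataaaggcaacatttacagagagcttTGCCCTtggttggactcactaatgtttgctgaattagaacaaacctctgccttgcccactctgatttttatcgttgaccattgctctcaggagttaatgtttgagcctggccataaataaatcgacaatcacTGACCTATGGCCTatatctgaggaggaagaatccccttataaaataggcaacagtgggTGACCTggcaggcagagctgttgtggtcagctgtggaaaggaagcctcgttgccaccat
Acot1, chr12:84009252-84009551, plus strand: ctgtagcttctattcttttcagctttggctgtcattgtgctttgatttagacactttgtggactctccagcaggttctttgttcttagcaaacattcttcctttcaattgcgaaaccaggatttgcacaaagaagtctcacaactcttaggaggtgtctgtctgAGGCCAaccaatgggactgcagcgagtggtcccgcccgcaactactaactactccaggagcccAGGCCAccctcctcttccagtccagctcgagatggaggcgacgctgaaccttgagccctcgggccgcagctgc
Acaa1b, chr9:119157044-119157343, minus strand: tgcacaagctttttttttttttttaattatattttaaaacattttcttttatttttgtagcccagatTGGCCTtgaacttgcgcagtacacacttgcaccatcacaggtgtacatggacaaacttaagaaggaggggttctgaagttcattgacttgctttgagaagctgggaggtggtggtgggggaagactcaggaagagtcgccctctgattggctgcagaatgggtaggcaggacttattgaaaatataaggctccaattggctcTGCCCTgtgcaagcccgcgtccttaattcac
Pdk4, chr6:5496229-5496528, minus strand: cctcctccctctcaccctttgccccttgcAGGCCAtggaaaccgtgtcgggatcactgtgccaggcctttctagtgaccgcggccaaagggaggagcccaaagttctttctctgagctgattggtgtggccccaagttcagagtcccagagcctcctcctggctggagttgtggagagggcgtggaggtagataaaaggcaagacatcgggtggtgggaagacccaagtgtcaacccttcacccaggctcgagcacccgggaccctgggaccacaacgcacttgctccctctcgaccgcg
Counting exact matches only, the full element occurred in the windows of 103 of 27025 genes (0.381%) and the shorter motif in 57.1% of the 27025. The short matches in Acot1, Acaa1b and Pdk4 are therefore what most promoters hold.

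Fabp1 and Vnn1, other PPAR alpha targets, were lower at 10 weeks without passing the threshold. Fabp1, which encodes the fatty acid binding protein shared by liver and proximal intestine, stood at 88.4, 47.7 and 72.4 CPM at 10 weeks, against 284, 208 and 214 CPM at 6 weeks. Every older ileum was below every younger one, with a log2 difference of -1.76 ± 0.42 and an edgeR adjusted p of 0.805. In the fit of the 6 GF libraries alone its adjusted p was 0.00206. Vnn1, which encodes a pantetheinase that recycles vitamin B5, had 27.5, 35.6 and 28.5 CPM at 10 weeks, against 61.9, 64.9 and 66.1 CPM at 6 weeks. The 2 ages were tight and separate, and the log2 difference of -1.07 ± 0.23 had an adjusted p of 0.200 in edgeR, while DESeq2 called the gene lower.

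The wider list of PPAR alpha and fatty acid oxidation genes held 22 genes, of which 19 were tested. Like the other lists below, it was written with earlier results of these data known. Its shares are therefore not independent of the 3 calls. Besides the 3 called genes (15.8% of 19, against 0.0302% of all tested genes), 4 more were lower at an unadjusted p under 0.05 and none higher. Of all tested genes, 2.18% were lower and 1.62% higher at that level. The median of the 19 was -0.31, against -0.01 for all tested genes, 16 of 19 differences were below 0 (51.8% of all tested genes were), and 10 had all 10-week libraries under all 6-week libraries (52.6%, against 6.11% of all tested genes). The summed level of all 22 genes of the list, tested or not, was 2272, 2614 and 2744 CPM at 10 weeks, against 3084, 3157 and 3317 CPM at 6 weeks. The 3 called genes count in the median, the signs, the separation and this sum.

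Within the list the size of the difference varied with the gene. Cyp4a10, a fatty acid omega-hydroxylase, had 8.41, 8.42 and 18.8 CPM at 10 weeks, against 52.6, 38.1 and 20.7 CPM at 6 weeks (-1.64 ± 0.63 on the log2 scale, unadjusted p = 0.0211). The older replicate 3 came close to the lowest younger library. Ehhadh, the peroxisomal bifunctional enzyme that precedes the thiolase, had 45.1, 33.4 and 20.9 CPM at 10 weeks, against 50.9, 39.0 and 85.2 CPM at 6 weeks, and its ages overlapped (-0.82 ± 0.29, unadjusted p = 0.0104). Genes of mitochondrial fatty acid import differed less. Slc25a20, the carnitine-acylcarnitine carrier, had 238, 261 and 267 CPM at 10 weeks, against 332, 344 and 365 CPM at 6 weeks, with no overlap (-0.44 ± 0.16, unadjusted p = 0.0101). Cpt1a, the outer-membrane carnitine palmitoyltransferase, had 128, 166 and 129 CPM at 10 weeks, against 179.6, 201 and 178 CPM at 6 weeks, also with no overlap (-0.40 ± 0.18, unadjusted p = 0.0389).

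The receptor itself and a classical target gave differences near 0. Ppara had 196, 197 and 249 CPM at 10 weeks, against 189, 230.1 and 218 CPM at 6 weeks, a difference of 0.01 ± 0.24 with a 95% interval of -0.49 to 0.51. Angptl4, a secreted inhibitor of lipoprotein lipase, had 115, 152 and 162 CPM at 10 weeks, against 135, 149.8 and 127 CPM at 6 weeks (0.06 ± 0.22). The ages of both overlapped, and the sign of each turned in at least 1 fit with a library left out. Of the enzymes of mitochondrial beta-oxidation, the long-chain dehydrogenase Acadl had 178, 226 and 241 CPM at 10 weeks, against 284, 255 and 276 CPM at 6 weeks, without overlap (-0.34 ± 0.18, unadjusted p = 0.0755). The medium-chain dehydrogenase Acadm (0.01 ± 0.15) and the trifunctional protein subunits Hadha (-0.14 ± 0.16) and Hadhb (-0.25 ± 0.16) overlapped between the ages.

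Paralogs of Acot1 and Acaa1b were looked up because their transcripts are alike. Acot2, the mitochondrial neighbour of Acot1, had 4.92, 10.3 and 5.65 CPM at 10 weeks, against 14.4, 14.7 and 10.4 CPM at 6 weeks (-0.90 ± 0.47). Its ages did not overlap by a narrow margin. Acot3, the peroxisomal member, was near the limit of detection, with 1, 0 and 2 reads at 10 weeks, against 9, 18 and 18 reads at 6 weeks (-3.55 ± 1.11, unadjusted p = 0.00438). Acaa1a, the constitutive copy of the thiolase, had 238, 258 and 265 CPM at 10 weeks, against 294, 301 and 348 CPM at 6 weeks, a non-overlapping but small difference of -0.31 ± 0.19 beside the -1.51 ± 0.25 of Acaa1b.

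**Figure D2:**
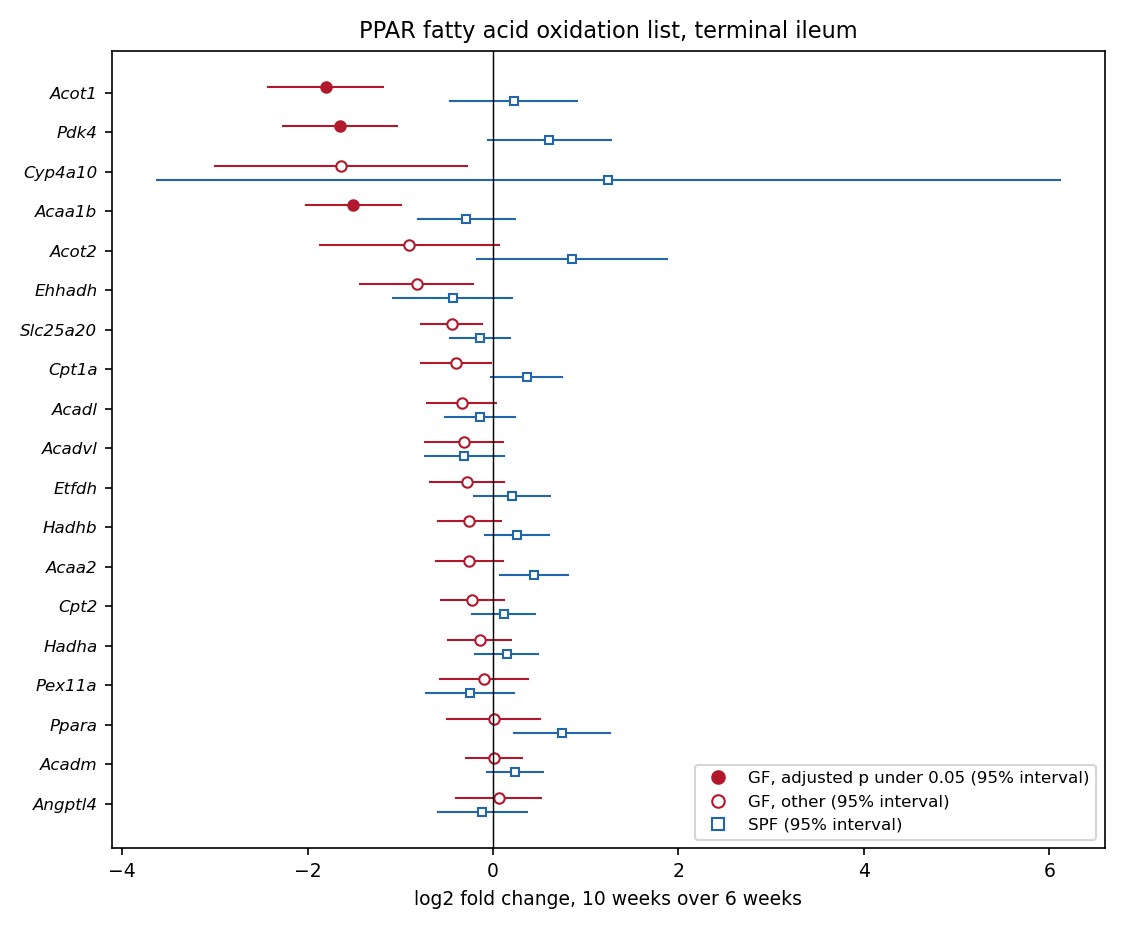
Fitted log2 fold change, 10 weeks over 6 weeks, of the 19 tested genes of the fatty acid list with 95% intervals, in GF ileum (circles, filled where the adjusted p was under 0.05) and SPF ileum (squares). Acot1, Pdk4 and Acaa1b are the filled circles at the left, Ppara and Angptl4 lie near 0, and none of the SPF squares passed the threshold.

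In SPF ileum none of the 19 genes was called in either direction, and the list median was 0.21, against 0.04 for all tested genes, though 0.02 without SPF 10-week replicate 2. Acot1 had 6.63, 7.39 and 10.1 CPM at 10 weeks and 6.02, 3.34 and 10.8 CPM at 6 weeks in SPF ileum, so every GF library stood above every SPF library, the older ones by a narrow margin. Pdk4 had 9.68, 11.4 and 9.12 CPM at 10 weeks and 6.31, 4.94 and 8.72 CPM at 6 weeks in SPF ileum, under every GF library too. The test of whether the age difference itself differed, GF minus SPF, gave -2.26 ± 0.44 for Pdk4 (adjusted p = 0.0927), -2.03 ± 0.45 for Acot1 (adjusted p = 0.165) and -1.22 ± 0.35 for Acaa1b (adjusted p = 0.361). None passed, so a difference between GF and SPF mice in how these genes changed with age was not shown.

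Colonized mice gave a further set of levels. Acot1 had 4.58, 6.73 and 4.10 CPM at 10 weeks and 3.65, 4.87 and 4.09 CPM at 6 weeks in COL ileum, under every GF library at either age. Fabp1 had 2.64, 3.03 and 0.513 CPM at 10 weeks and 42.0, 29.4 and 21.1 CPM at 6 weeks in COL ileum. Pdk4 had 5.98, 3.36 and 2.74 CPM at 10 weeks and 18.9, 8.63 and 15.3 CPM at 6 weeks in COL ileum. For this gene 6-week COL replicate 1 lay above all 10-week GF libraries, replicate 3 lay among them, and the other 4 COL libraries lay below them.

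The gene with the smallest p among those higher at 10 weeks encodes a heat shock chaperone, though it did not pass the edgeR threshold. Hsph1 (chr5:149614287-149636376, minus strand), an HSP110 family nucleotide exchange factor for HSP70, had 102, 47.3 and 99.9 CPM at 10 weeks, against 18.5, 24.3 and 28.7 CPM at 6 weeks. All older ilea lay above all younger ones, and 10-week replicate 2 was the lowest of the older (log2 difference 1.79 ± 0.34, edgeR adjusted p = 0.157). Without that replicate Hsph1 passed, at 2.08 and an adjusted p of 0.0079, and DESeq2 called it on all libraries. The inducible HSP70 genes Hspa1b and Hspa1a, at places 25 and 29 of all tested genes by p, gave the same order among the older libraries. Hspa1a had 75.4, 18.5 and 33.9 CPM at 10 weeks, against 7.85, 5.96 and 5.21 CPM at 6 weeks (2.76 ± 0.75, unadjusted p = 0.00315). Hspa1b had 94.3, 25.4 and 65.6 CPM at 10 weeks, against 17.2, 15.5 and 12.7 CPM at 6 weeks (2.03 ± 0.55, unadjusted p = 0.00289). Within both genes 10-week replicate 1 was highest and 10-week replicate 2 lowest of the older libraries, still above every younger one. The pair shared 296 of 300 promoter bases. The 3′ ends, from which the reads come, were not compared, so how reads divide between the 2 genes is not known.

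A match to the heat shock element lies just after the start of Hsph1. Its first RefSeq promoter window in GRCm38.p6, of 2, is shown with capitals marking the match to GAANNTTCNNGAA, alternating GAA and TTC units, or to its reverse complement, which begins 36 bases after the start.
Hsph1, chr5:149636287-149636586, minus strand: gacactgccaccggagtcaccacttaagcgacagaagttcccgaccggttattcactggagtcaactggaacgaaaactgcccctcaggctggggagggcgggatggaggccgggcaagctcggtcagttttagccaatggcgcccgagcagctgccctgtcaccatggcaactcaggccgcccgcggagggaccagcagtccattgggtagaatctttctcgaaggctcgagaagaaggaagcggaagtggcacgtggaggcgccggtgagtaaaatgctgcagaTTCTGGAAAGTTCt
An exact match was found in the windows of 143 of 27025 genes (0.529%), and none lies in the windows of Hspa1a and Hspa1b. Elements that differ from these letters at any fixed base were not searched for, so whether those 2 windows hold one was not tested.

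Other chaperone genes were less uniform, and none was called by edgeR. Chordc1, an HSP90 cochaperone, had 80.4, 44.2 and 73.1 CPM at 10 weeks, against 41.4, 37.2 and 35.6 CPM at 6 weeks (0.79 ± 0.24). Ahsa2, related to an activator of the HSP90 ATPase, had 32.6, 31.2 and 35.8 CPM at 10 weeks, against 19.5, 18.9 and 17.2 CPM at 6 weeks (0.84 ± 0.19, adjusted p = 0.202), and was among the 5 genes that DESeq2 called higher. Neither gene's ages overlapped. Dnajb1, an HSP40 cochaperone, had 51.5, 37.4 and 48.6 CPM at 10 weeks, against 47.9, 31.1 and 40.0 CPM at 6 weeks (0.21 ± 0.22). Bag3, another cochaperone of HSP70, had 35.3, 19.5 and 26.2 CPM at 10 weeks, against 31.4, 26.2 and 32.8 CPM at 6 weeks (-0.17 ± 0.29), and both genes overlapped between the ages. Constitutive HSC70, Hspa8, had 19.5, 20.1 and 34.1 CPM at 10 weeks, against 19.3, 14.6 and 12.3 CPM at 6 weeks, with a small gap between the ages (0.68 ± 0.27, unadjusted p = 0.0189). Of 23 tested members of the immediate early and heat shock list, 5 were higher and 2 lower at an unadjusted p under 0.05. Of all tested genes, 1.62% were higher and 2.18% lower at that level. The list median was 0.13. None of its members was called by edgeR, and 2 were among the 5 genes of 13233 that DESeq2 called higher. Immediate early genes, which respond within minutes to cell stimulation or tissue handling, lay on both sides of 0. Fos had 25.2, 26.4 and 23.4 CPM at 10 weeks, against 11.5, 20.1 and 15.1 CPM at 6 weeks (0.68 ± 0.32, unadjusted p = 0.0474), whereas Jun had 108, 79.5 and 100.2 CPM at 10 weeks, against 116, 123 and 174 CPM at 6 weeks (-0.53 ± 0.21, unadjusted p = 0.0205). Zfp36, which encodes an mRNA-decay factor of the same class, had 23.4, 24.1 and 23.0 CPM at 10 weeks, against 36.9, 38.3 and 39.5 CPM at 6 weeks, tight within each age and lower at 10 weeks (-0.70 ± 0.19, adjusted p = 0.805). How long each tissue was handled is not given in the sources used here, and the part of these genes in the chaperone values was not tested.

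The older library with the lowest Hsph1, Hspa1a and Hspa1b, 10-week replicate 2, was also the only older one with Adipoq, so whether fat RNA goes with the lower level cannot be told apart from that library itself. In the SPF mice Hsph1 had 85.0, 55.1 and 129.6 CPM at 10 weeks and 54.7, 61.1 and 38.4 CPM at 6 weeks, and in COL mice 347, 289 and 251 CPM at 10 weeks and 93.8, 153 and 94.3 CPM at 6 weeks, so the 6-week GF ilea were the lowest group for this gene.

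**Figure D3:**
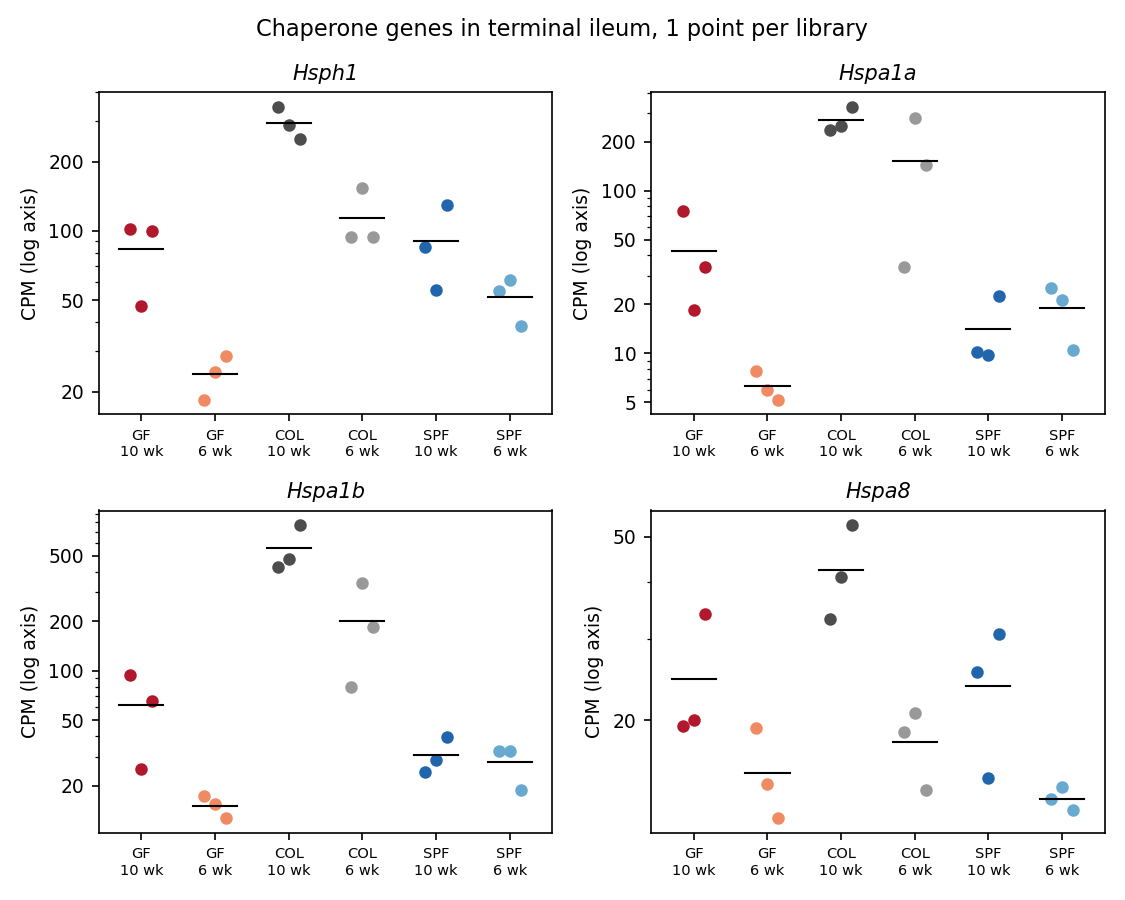
CPM on a log axis for Hsph1, Hspa1a, Hspa1b and Hspa8 in every terminal ileum library, 1 point per library with a line at the mean of 3. The 10-week GF points of all 4 genes lie above the 6-week GF points, with 10-week replicate 2 the lowest of the older for Hsph1, Hspa1a and Hspa1b.

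Other genes ranked highest by p among those higher at 10 weeks, none called by edgeR, were of mixed function. Banp, a nuclear matrix protein that binds unmethylated CGCG motifs, had 60.1, 37.8 and 55.8 CPM at 10 weeks, against 25.7, 24.9 and 17.1 CPM at 6 weeks (1.19 ± 0.25, adjusted p = 0.171). Dlgap4, a scaffold protein best known from synapses, had 68.5, 63.4 and 58.2 CPM at 10 weeks, against 39.2, 42.2 and 37.0 CPM at 6 weeks (0.68 ± 0.16, adjusted p = 0.381). DESeq2 called both. Hbegf, a ligand of the epidermal growth factor receptor, had 35.7, 46.4 and 30.3 CPM at 10 weeks, against 22.7, 19.8 and 13.6 CPM at 6 weeks (1.01 ± 0.25, adjusted p = 0.621). Mettl17 (0.77 ± 0.23), which acts in assembly of the mitochondrial ribosome, Tpra1 (0.63 ± 0.19), Rcor1 (0.54 ± 0.17), a corepressor of neuronal genes, and Hook2 (0.48 ± 0.15), a dynein adaptor, made up the rest, and none of these 7 genes overlapped between the ages.

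Genes of the extracellular matrix were lower at 10 weeks as a group of small differences, with none called by edgeR or DESeq2. Of 39 tested collagen and matrix genes, 36 were below 0 (51.8% of all tested genes were). At an unadjusted p under 0.05, 15 were lower and none higher, against 2.18% and 1.62% of all tested genes. No overlap was seen in 11 (28.2%, against 6.11% of all tested genes). The median of the 39 was -0.39, against -0.01 for all tested genes, and lay between -0.58 and -0.28 over the 14 alternative fits. Col1a2, a chain of type I collagen, had 110.1, 107 and 89.9 CPM at 10 weeks, against 169.9, 204 and 131 CPM at 6 weeks (-0.72 ± 0.18, edgeR adjusted p = 0.676). Col1a1, its partner chain, had 62.1, 54.2 and 44.3 CPM at 10 weeks, against 80.4, 95.6 and 66.1 CPM at 6 weeks (-0.59 ± 0.20, unadjusted p = 0.00739). The 2 chains shared the same separation of ages. Fbn1, which encodes the microfibril protein fibrillin, had 27.9, 28.7 and 24.9 CPM at 10 weeks, against 32.7, 61.7 and 52.3 CPM at 6 weeks (-0.85 ± 0.22, adjusted p = 0.782). Col3a1, the collagen of soft reticular fibres, had 158, 169.7 and 129 CPM at 10 weeks, against 171, 283 and 212 CPM at 6 weeks (-0.55 ± 0.21). For both genes 6-week replicate 1, the younger library without Adipoq, sat nearest the older ilea. Among the libraries without Adipoq, 2 older and 1 younger, mean log2 CPM differed by -0.31 for Fbn1 and -0.26 for Col3a1. It differed by -0.77 for Col1a2 and -0.61 for Col1a1. The part of attached fat in the matrix values was not tested. Sparc, a collagen-binding matrix glycoprotein, had 155, 196 and 112 CPM at 10 weeks, against 199, 326 and 243 CPM at 6 weeks (-0.73 ± 0.27). Elastin (Eln, -0.69 ± 0.27), the elastin cross-linking enzyme Loxl1 (-0.75 ± 0.34), the membrane metalloproteinase Mmp14 (-0.61 ± 0.28) and the collagen chaperone Serpinh1 (-0.95 ± 0.40) were also lower at an unadjusted p under 0.05, and Eln and Serpinh1 overlapped between ages.

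Contractile genes of the muscle layers were also below 0 for the most part. Smooth muscle markers of 4 genes summed to 2670, 2269 and 1799 CPM at 10 weeks, against 2992, 2585 and 2256 CPM at 6 weeks. Of 22 tested contractile genes, 19 were below 0 (51.8% of all tested genes were), and none had an unadjusted p under 0.05. Their median was -0.18 and lay between -0.37 and -0.01 over the 14 alternative fits. Their part in the matrix values was not tested. In SPF ileum the matrix list had a median of -0.33 with 2 genes called lower (0.793% of all tested genes were), and the smooth muscle list one of -0.80. Without SPF 10-week replicate 3, the library low in muscle markers, the medians were -0.27, with 1 gene called, and -0.38, and without SPF 10-week replicate 2 they were -0.56, with 3 called, and -1.32. With any 1 of the other 4 SPF libraries left out the matrix median lay between -0.40 and -0.24, with 0 or 1 gene called.

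The remaining genes ranked by p among those lower at 10 weeks were again not called. Slc30a10, a manganese exporter, had 11.3, 17.1 and 26.4 CPM at 10 weeks, against 29.3, 35.5 and 40.7 CPM at 6 weeks (-0.95 ± 0.28). Psmb9, an interferon-inducible subunit of the immunoproteasome, had 38.7, 34.3 and 35.8 CPM at 10 weeks, against 52.6, 47.5 and 61.7 CPM at 6 weeks (-0.57 ± 0.17). Srsf5, a splicing factor, had 175, 168 and 183 CPM at 10 weeks, against 245, 239 and 286 CPM at 6 weeks (-0.55 ± 0.17). None of the 3 overlapped between the ages, and the same held for Retsat, a retinol saturase, at 126, 133 and 145 CPM at 10 weeks, against 166, 190.2 and 216 CPM at 6 weeks (-0.51 ± 0.17, unadjusted p = 0.00564).

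**Figure D4:**
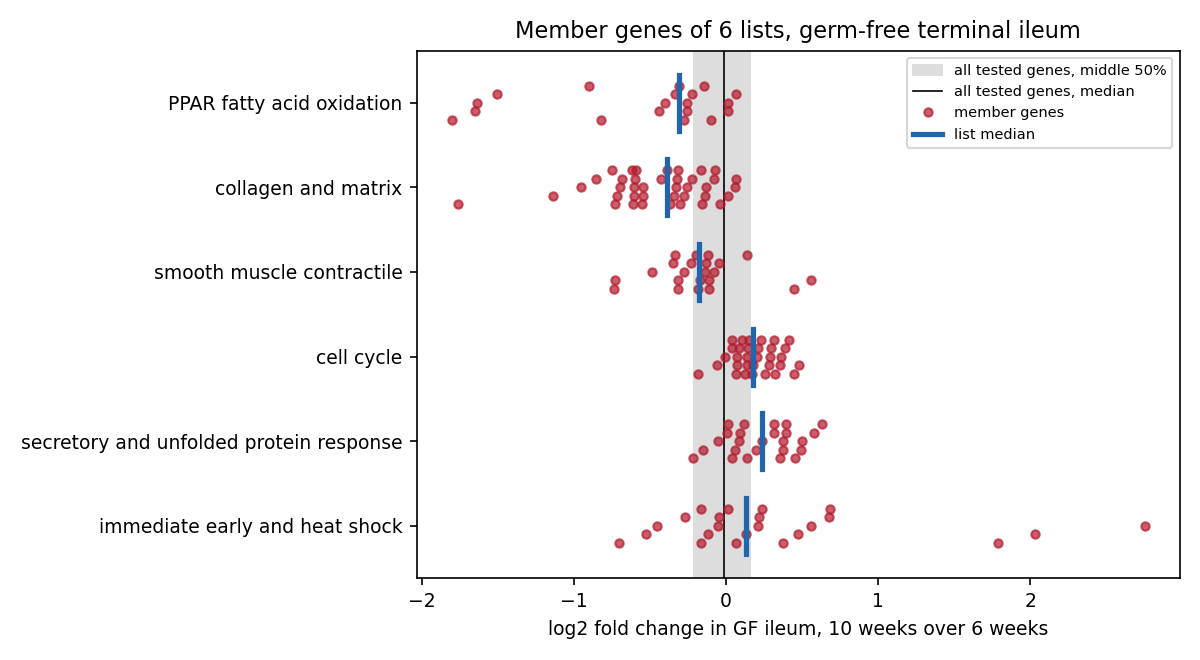
Fitted log2 fold change in GF ileum, 10 weeks over 6 weeks, of each tested gene in 6 lists (points), with the list median (bar) and the median and middle 50% of all tested genes (line and band). The fatty acid list has its median at -0.31 with a few genes far to the left, collagen and matrix at -0.39, smooth muscle at -0.18, cell cycle at 0.17, the secretory list at 0.24, and heat shock at 0.13 with a few genes far to the right.

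Genes of protein folding and export in the endoplasmic reticulum were slightly higher at 10 weeks. Of 25 tested genes of secretion and the unfolded protein response, 22 were above 0 (48.2% of all tested genes were). All older libraries lay above all younger ones in 10 (40.0%, against 6.67% of all tested genes). At an unadjusted p under 0.05, 5 were higher and none lower, against 1.62% and 2.18% of all tested genes. Neither edgeR nor DESeq2 called any of the 25. Their median was 0.24 in GF ileum and -0.10 in SPF ileum, where it ran from -0.26 without 10-week replicate 3 to -0.03 without 10-week replicate 1. Xbp1, the transcription factor that expands the endoplasmic reticulum of secretory cells, had 390.1, 304 and 345 CPM at 10 weeks, against 275, 212 and 209 CPM at 6 weeks (0.58 ± 0.19, unadjusted p = 0.00612). Calr, a calcium-binding lectin chaperone, had 873, 902 and 1125 CPM at 10 weeks, against 736, 638 and 746 CPM at 6 weeks (0.45 ± 0.16, unadjusted p = 0.0103). Both were separate between the ages. Hsp90b1, the chaperone of the same compartment, had 415, 402 and 457 CPM at 10 weeks, against 345, 296 and 385 CPM at 6 weeks (0.31 ± 0.15). Hspa5, its HSP70, had 1348, 975 and 1287 CPM at 10 weeks, against 1009.9, 821 and 958 CPM at 6 weeks, and its ages overlapped (0.37 ± 0.18, unadjusted p = 0.0518). Asns, an asparagine synthetase induced by amino acid shortage, had 21.5, 20.5 and 20.9 CPM at 10 weeks, against 15.3, 13.9 and 11.6 CPM at 6 weeks, without overlap (0.63 ± 0.27, unadjusted p = 0.0282).

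Markers of epithelial identity gave small differences. Fabp6, the bile acid binding protein of ileal enterocytes, ranged over 14637, 33020.3 and 23418 CPM at 10 weeks and 16020.1, 25999 and 29093 CPM at 6 weeks, with a difference of -0.00074 ± 0.29 whose 95% interval was -0.61 to 0.61. Slc10a2, the apical bile acid transporter, had 422, 413 and 490.3 CPM at 10 weeks, against 457, 398 and 287 CPM at 6 weeks (0.21 ± 0.20, 95% interval -0.19 to 0.62). Both overlapped freely. Slc5a1, the sodium-glucose cotransporter, had 1429.7, 1514 and 1628 CPM at 10 weeks, against 1039, 1082 and 1091 CPM at 6 weeks, and was higher in every older ileum (0.51 ± 0.19, unadjusted p = 0.0119, not called). Muc2, the gel-forming mucin of goblet cells, had 4896, 4971 and 5542 CPM at 10 weeks, against 4821, 4174 and 3965 CPM at 6 weeks, a narrow separation (0.25 ± 0.23). Lyz1, a lysozyme of Paneth cells, had 492, 504 and 615 CPM at 10 weeks, against 477, 539.7 and 418 CPM at 6 weeks (0.17 ± 0.33, 95% interval -0.53 to 0.87). Mmp7, the protease that activates Paneth cell defensins, had 175, 153 and 209 CPM at 10 weeks, against 101, 118 and 115 CPM at 6 weeks, again without overlap (0.68 ± 0.34, unadjusted p = 0.0614). The Paneth and goblet lists, of 19 tested genes each, had medians of 0.12 and 0.13 and no gene at an unadjusted p under 0.05. Antimicrobial lectins that bacteria induce overlapped between ages. Reg3g had 2070.0, 1630.1 and 1821 CPM at 10 weeks, against 2447, 1502 and 1201 CPM at 6 weeks (0.10 ± 0.48, 95% interval -0.93 to 1.13), and Reg3b had 2808, 2291 and 3175 CPM at 10 weeks, against 4753, 3047 and 2498 CPM at 6 weeks (-0.32 ± 0.39).

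Proliferation genes were mostly a little above 0. Of 32 tested cell cycle genes, 29 were above 0 in GF ileum (48.2% of all tested genes were). There 2 were higher at an unadjusted p under 0.05 (1.62% of all tested genes were), and none was called by edgeR or DESeq2. Only 3 of the 32 (9.38%) did not overlap in GF ileum, against 6.67% of all tested genes. The list median was 0.17 in GF ileum and 0.18 in SPF ileum, where it lay between 0.09 and 0.31 with 1 library left out. In SPF ileum edgeR called 1 of the 32 genes higher, where 1.37% of all tested genes were called in either direction. With 1 library left out, 0 or 1 gene of the list was called. Mki67, a nuclear protein of dividing cells, had 37.5, 50.2 and 52.4 CPM at 10 weeks, against 52.0, 39.5 and 33.8 CPM at 6 weeks in GF ileum (0.17 ± 0.20). Lgr5, the receptor that marks crypt stem cells, had 16.4, 11.5 and 18.8 CPM at 10 weeks, against 19.1, 15.2 and 14.0 CPM at 6 weeks (-0.05 ± 0.30). Both overlapped in GF ileum. In SPF ileum Mki67 was called higher (1.01 ± 0.20, edgeR adjusted p = 0.0165), and Lgr5 was not called (0.52 ± 0.30). For Mki67 the age difference in GF minus that in SPF ileum was -0.85 ± 0.29, which did not pass (edgeR adjusted p = 0.418). Among 21 tested stem cell and Wnt genes, Ascl2, a stem cell transcription factor, had 18, 17.1 and 14.5 CPM at 10 weeks, against 12.3, 11.8 and 9.61 CPM at 6 weeks (0.56 ± 0.26, unadjusted p = 0.0405), whereas the Wnt target Sp5 had 2.67, 1.33 and 1.13 CPM at 10 weeks, against 4.45, 3.28 and 6.01 CPM at 6 weeks (-1.43 ± 0.56, unadjusted p = 0.0176).

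Macrophage genes, the subject named in the study's title, showed no common shift in whole ileum. Of 25 tested genes of resident macrophages, 1 was higher and 1 lower at an unadjusted p under 0.05 (1.62% and 2.18% of all tested genes). None of the 25 was called by edgeR or DESeq2, and the median was -0.13. Csf1r, the receptor for macrophage growth factor, had 9.43, 9.45 and 13.8 CPM at 10 weeks, against 15.7, 10.3 and 10.0 CPM at 6 weeks, with overlap (-0.13 ± 0.29, 95% interval -0.73 to 0.47). Cx3cr1, the fractalkine receptor of intestinal macrophages, had 10.3, 7.09 and 3.20 CPM at 10 weeks, against 10.2, 11.5 and 10.8 CPM at 6 weeks (-0.66 ± 0.32, unadjusted p = 0.0489). Lyve1, expressed by some tissue macrophages and by lymphatic vessels, had 11.5, 15.2 and 12.4 CPM at 10 weeks, against 8.48, 10.1 and 6.67 CPM at 6 weeks, with no overlap (0.63 ± 0.31, unadjusted p = 0.0485). C1qa, a complement component made by resident macrophages, had 26.0, 20.7 and 22.4 CPM at 10 weeks, against 34.6, 35.0 and 23.9 CPM at 6 weeks, and overlapped (-0.43 ± 0.22, unadjusted p = 0.0606).

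Lymphocyte genes were highest in the libraries with follicle RNA. The T cell and intraepithelial lymphocyte list summed to 25.8, 12 and 15.1 CPM at 10 weeks, against 69.4, 12.4 and 12.4 CPM at 6 weeks, so 6-week replicate 1, which held B cell follicle RNA, was far above the other 5. Its median over 23 tested genes was -1.07 and lay between -2.17 and 0.76 over the alternative fits. Cd3e, the invariant chain of the T cell receptor, had 0.615, 0.148 and 0.565 CPM at 10 weeks, against 4.24, 0 and 0.133 CPM at 6 weeks (-1.55 ± 1.17), and the sign turned to 2.28 without 6-week replicate 1. Klrd1, a receptor of killer cells and intraepithelial lymphocytes, was the exception in that all 3 older libraries lay below the younger, at 0.410, 0.443 and 0.188 CPM at 10 weeks, against 2.54, 1.34 and 0.534 CPM at 6 weeks (-1.95 ± 0.81, unadjusted p = 0.0243). Its values rest on 2, 3 and 1 reads at 10 weeks, against 12, 9 and 4 reads at 6 weeks.

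Signals of growth, sex and time of day were checked because they could differ between the ages. Igf1, the insulin-like growth factor, had 16.6, 30.4 and 14.7 CPM at 10 weeks, against 20.8, 43.9 and 24.6 CPM at 6 weeks, with overlap (-0.53 ± 0.27, unadjusted p = 0.0624). Igf2, its fetal relative, had 10.0, 5.91 and 7.16 CPM at 10 weeks, against 3.82, 10.1 and 5.47 CPM at 6 weeks (0.23 ± 0.45). Ddx3y, on the Y chromosome, was present in all 6 libraries at 68.1, 64.5 and 56.7 CPM at 10 weeks and 66.4, 64.1 and 49.1 CPM at 6 weeks, and Xist, the X-inactivation RNA of female cells, did not exceed 0.754 CPM, so male RNA was present in every library of both ages. Dbp, a transcription factor with a strong daily rhythm, had 15.8, 8.42 and 8.86 CPM at 10 weeks, against 7.85, 6.41 and 7.34 CPM at 6 weeks, with 10-week replicate 1 apart from the rest and a narrow gap between the ages (0.61 ± 0.51, 95% interval -0.44 to 1.66).

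The age difference itself was tested between GF and SPF mice for every gene, and 2 genes, or 0.0151%, passed, with 1132 (8.55%) at an unadjusted p under 0.05 and 30 called by DESeq2. Sgk1, a kinase induced by glucocorticoids and mineralocorticoids that raises sodium uptake, had 240.1, 175 and 204 CPM at 10 weeks, against 147, 156 and 172 CPM at 6 weeks in GF ileum, and 93.8, 79.1 and 83.1 CPM at 10 weeks, against 186, 168 and 144 CPM at 6 weeks in SPF ileum. The ages were separate in both kinds of mice and in opposite order. The GF difference of 0.38 ± 0.15 was not called (edgeR unadjusted p = 0.0202). The SPF difference was -0.96 ± 0.16 (edgeR adjusted p = 0.00812), and the 2 differed by 1.34 ± 0.22 (edgeR adjusted p = 0.0155). Apoa4, an apolipoprotein that enterocytes release with chylomicrons, had 134, 177 and 151 CPM at 10 weeks, against 255, 165 and 129 CPM at 6 weeks in GF ileum, and 236, 296 and 327 CPM at 10 weeks, against 101, 82.6 and 109 CPM at 6 weeks in SPF ileum. It overlapped between ages in GF mice (-0.24 ± 0.21) and rose in SPF mice (1.55 ± 0.21, adjusted p = 0.00143), and the difference was -1.79 ± 0.30 (adjusted p = 0.0155). With 1 of the 12 GF and SPF libraries left out at a time, each gene passed in 6 of 12 fits, with adjusted p up to 0.135 for Sgk1 and 0.139 for Apoa4.

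**Figure D5:**
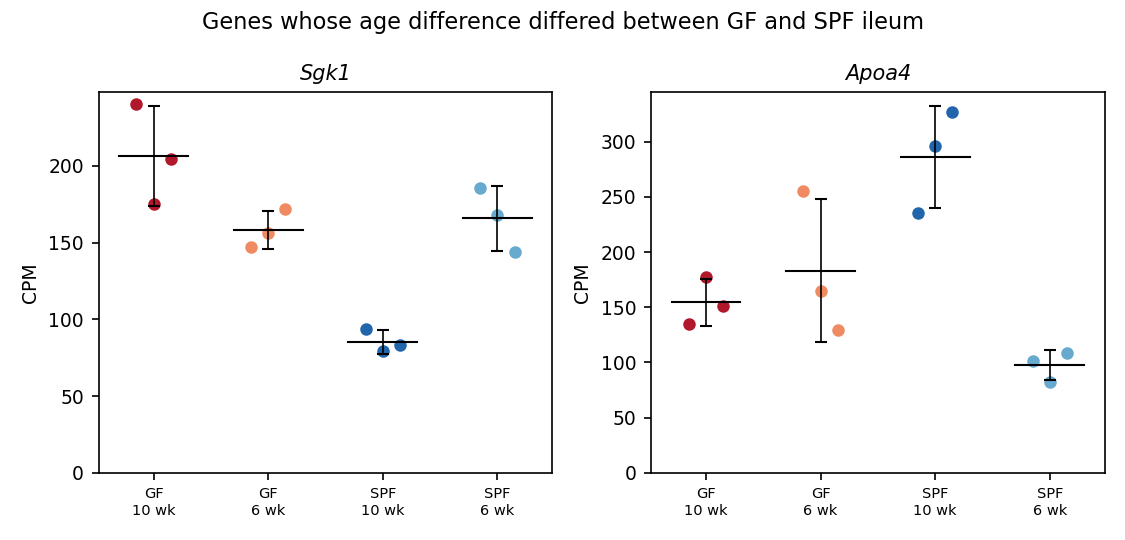
CPM of Sgk1 and Apoa4 in GF and SPF terminal ileum at both ages, 1 point per library, with the mean and SD of 3 as line and bar. Sgk1 is higher at 10 weeks than at 6 weeks in GF ileum, where it was not called, and lower in SPF ileum. Apoa4 is higher at 10 weeks in SPF ileum and overlaps between ages in GF ileum.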

How the data were processed

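Total RNA of terminal ileum was made into QuantSeq 3′ mRNA libraries for Ion Torrent sequencing, per the labels' protocols. Reads were trimmed with Trimmomatic 0.36, checked with FastQC 0.11.5, aligned to mm10 with STAR 2.5.3a and counted with HTSeq, per the submitters' processing notes. The HTSeq version, strand setting and gene annotation are not given in the sources used here. The deposited values are raw counts per gene, and 5 summary lines per file that name no gene were left out of library sizes. Between 47.2% and 51.6% of the listed reads of each GF library lay in genes.

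Counts of the 18 ileum libraries, in 6 groups of 3, were fitted together with edgeR 4.0.16 in R 4.3.3: filterByExpr by group, TMM scaling, 1 mean per group and robust quasi-likelihood F tests, adjusted by the Benjamini-Hochberg method over 13233 genes at a threshold of 0.05. Errors after ± on log2 differences are standard errors. The difference between the GF and SPF age effects was a contrast of the same fit. DESeq2 1.42.0, another scaling, no filter, only the libraries compared, a replicate block and leaving out libraries were the alternatives. Within a group, libraries differed by 8.99 to 18 times the sampling noise (chi-square per degree of freedom), so none was counted as a duplicate.

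Genes were named by rule: up to 12 genes per direction whose libraries did not overlap and whose log2 CPM averaged 3 or more, called genes before others and those in order of unadjusted p, plus the 4 members of each list with the smallest p and a set of tissue markers, from which the text gives a part; 2 genes are not reported here and were left out of the lists. Outside that rule, the other members of the fatty acid list, their paralogs Acot3 and Acaa1a, Hspa8, Dnajb1, Bag3, Jun, Hsp90b1, Hspa5, Sparc, Eln, Loxl1, Mmp14, Serpinh1 and Adipoq were chosen after their values were seen. The gene lists, samples and comparisons were chosen with earlier results of these data known. Gene positions are from GENCODE vM21 and promoter sequences from RefSeq, GRCm38.p6. The age comparison in COL mice and the samples other than ileum were not analysed here.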

Additional observations from a re-analysis of the deposited data

Results flagged for a closer look

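For Sgk1 and Apoa4 the age difference in GF ileum differed from that in SPF ileum in the test of the difference itself (edgeR quasi-likelihood test, 3 libraries per group). Sgk1 averaged 206 ± 32.6 CPM at 10 weeks and 158 ± 12.5 CPM at 6 weeks in GF ileum, and 85.3 ± 7.61 CPM at 10 weeks and 166 ± 21.1 CPM at 6 weeks in SPF ileum (SD), which gave a difference of 1.34 on the log2 scale with an adjusted p of 0.0155. Apoa4 averaged 154 ± 21.6 CPM at 10 weeks and 183 ± 64.7 CPM at 6 weeks in GF ileum, and 286 ± 46.3 CPM at 10 weeks and 97.5 ± 13.4 CPM at 6 weeks in SPF ileum, which gave -1.79 with an adjusted p of 0.0155. Over all 21 alternatives the difference kept its sign for both genes and passed in 12 for each, with values between 1.19 and 1.58 for Sgk1 and between -2.36 and -1.37 for Apoa4.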

How the results depend on the processing

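Leaving out 1 library at a time gave 0 to 1 called genes in GF ileum, 0 to 1 higher and 0 lower, 0 to 416 in SPF ileum, and 0 to 13 for the difference between the age effects. DESeq2 called 10 genes in GF ileum, 5 of them higher, against 592 in SPF ileum and 30 for the difference. With no filter on low counts 1 gene passed as higher and 7 passed for the difference. In the fit of only the libraries compared, 29 genes passed in SPF ileum and 6 for the difference. Without both GF libraries numbered 1 there were 0 calls in GF ileum, 0 lower, and 0 for the difference, also with SPF 10-week replicate 1 left out. Without the 3 GF libraries with Adipoq, an alternative added after seeing the data, 0 passed, 0 of them lower. Wherever an age keeps 1 library, it is assumed to vary like the other groups. Whether the shared replicate numbers pair the libraries was not settled. The correlation of residuals was 0.23, 0.24 and 0.01 for same-numbered libraries, against -0.26 to 0.10 for differently numbered ones. Of the 3 older libraries, 2 matched their own number best. With the replicate number as a block, the 6 GF libraries gave 8 calls, 2 of them higher, SPF ileum gave 18, and the difference 6. A block over all 18 libraries gave 109 in SPF ileum and 3 in GF ileum, where Pdk4 had an adjusted p of 0.0584. Acot1, Acaa1b and Pdk4 kept their sign over 14 alternatives, and the cause of these shifts in counts was not tested.

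Sign changes, all in genes without a call, came to 25 over 11 genes. With 1 GF library left out at a time, log2 differences ran from -0.31 to 0.26 for Fabp6, -0.20 to 0.15 for Lgr5, -0.11 to 0.083 for Ppara, -0.029 to 0.20 for Angptl4, -0.43 to 0.077 for Apoa4, -0.33 to 0.11 for Csf1r, -2.18 to 2.28 for Cd3e, -0.016 to 0.72 for Igf2, -0.094 to 0.45 for Reg3g and -0.041 to 0.16 for Ddx3y. Without both libraries numbered 1 they were 0.043 for Fabp6, 0.056 for Lgr5, 0.17 for Apoa4, 0.20 for Csf1r, 1.98 for Cd3e and -0.25 for Igf2. Without the Adipoq libraries they were 0.26 for Fabp6, -0.32 for Reg3g, -0.075 for Ddx3y and -0.19 for Mki67.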

Other observations

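A few other genes with a known inducer were read off the lists, none of them called by edgeR. Fkbp5, which encodes a glucocorticoid-induced cochaperone of the steroid receptors, had 29.9, 33.1 and 64.8 CPM at 10 weeks, against 26.1, 25.8 and 21.9 CPM at 6 weeks in GF ileum, with no overlap and 10-week replicate 3 highest (0.79 ± 0.31, unadjusted p = 0.0193). Mt2, a metallothionein induced by zinc and by glucocorticoids, had 651, 975 and 569.6 CPM at 10 weeks, against 461, 190.4 and 235 CPM at 6 weeks, also without overlap (1.31 ± 0.65, unadjusted p = 0.0654). Tfrc, the transferrin receptor, had 179, 203 and 218 CPM at 10 weeks, against 165, 128 and 111 CPM at 6 weeks (0.57 ± 0.26, unadjusted p = 0.0410). Over 16 tested glucocorticoid-induced genes, 2 were higher and 1, Pdk4, was lower at an unadjusted p under 0.05, with a median of 0.19. Of all tested genes, 1.62% were higher and 2.18% lower at that level.

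A few genes of antigen processing and of mitochondria were lower, beside list medians near 0. H2-K1, a class I histocompatibility antigen, had 205, 198 and 152 CPM at 10 weeks, against 259, 236 and 272 CPM at 6 weeks, all older libraries lower (-0.46 ± 0.18, unadjusted p = 0.0191), while the list of 30 tested interferon-gamma genes had a median of -0.09. In that list 2 genes, H2-K1 and Psmb9, were lower and none higher at an unadjusted p under 0.05 (2.18% and 1.62% of all tested genes). Without overlap were 4 of the 30, all lower at 10 weeks (13.3%, against 6.11% of all tested genes). Cycs, the electron carrier cytochrome c, had 30.8, 33.7 and 30.1 CPM at 10 weeks, against 36.3, 66.3 and 54.1 CPM at 6 weeks without overlap (-0.73 ± 0.26, unadjusted p = 0.0107), while the 32 tested respiratory chain genes had a median of 0.01. Npas2, a clock transcription factor, had 20.7, 16.8 and 12.4 CPM at 10 weeks, against 28.8, 24.0 and 25.2 CPM at 6 weeks (-0.64 ± 0.24, unadjusted p = 0.0115), and was 1 of 19 tested clock genes at an unadjusted p under 0.05. Of all tested genes, 2.18% were lower at that level.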
